A study of Arabidopsis thaliana with 12 samples.

Results

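Truncated TIR and TIR-NBS genes were followed through the leaf transcripts of *Arabidopsis thaliana* plants that carry a GFP-tagged copy of the corepressor TPR1. They were taken from the deposited gene table by their descriptions, which name either the TIR-NBS class of disease resistance proteins or a Toll-Interleukin-Resistance (TIR) domain family protein, and not the TIR-NBS-LRR class. The rule found 21 of 18884 genes, 12 described as TIR-NBS class and 9 as TIR domain proteins, and all 21 passed the filter on low counts that left 18877 genes for testing. It used no measured value. Polyadenylated RNA came from untreated leaves of 5-week-old plants grown on soil with 10 h of light a day at 22 °C and 60% humidity, in 12 libraries, 3 for each of 4 genotypes. Col-0 is the wild-type accession and carries no transgene. The 3 other genotypes all carry TPR1-GFP under the promoter of *TPR1* itself (pTPR1:TPR1-GFP), in the Col-0 background for the first line, which is called TPR1-GFP here. The other two, TPR1-GFP sid2-1 and TPR1-GFP eds1-2, carry the transgene together with the sid2-1 or the eds1-2 mutation, and the labels give no accession for them. Plants with sid2-1 or eds1-2 and no transgene were not analysed here, so each mutation was seen on the TPR1-GFP background alone.

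TIR domains of plants are enzymes that cleave NAD+ and make small nucleotide signals. Full-length TIR receptors join the TIR domain to a nucleotide-binding NB-ARC (NBS) domain and a leucine-rich repeat (LRR) domain that senses pathogen proteins, while the truncated forms lack the repeats or both other parts. The signals are bound by EDS1, a lipase-like protein, paired with PAD4 or SAG101, and these pairs engage the helper receptors of the ADR1 and NRG1 families, which leads to defence gene expression, salicylic acid (SA) synthesis and cell death. The eds1-2 allele affects *EDS1*, and sid2-1 affects *ICS1*, the enzyme behind most pathogen-induced SA. Among the truncated genes, *CHS1* is named for mutants that are chilling sensitive, *CHL1* for its likeness to *CHS1*, and *RLM3* for resistance to the fungus *Leptosphaeria maculans*. The other 18 have no name in the files or in the gene table of the reference and are given by locus code.

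Library totals ran from 19628974 to 32018583 counts, and levels are given as counts per 1000000 counts (CPM) with library sizes scaled by the TMM method of edgeR. *TPR1* stood at 68.3 to 74.1 CPM in Col-0 and at 1539 to 1748 CPM in TPR1-GFP, 776 to 1305 CPM in the sid2-1 line and 990.2 to 1327 CPM in the eds1-2 line, where native gene and transgene cannot be told apart. Against TPR1-GFP it was called lower in the sid2-1 line (log2 change −0.57, SE 0.17, edgeR adjusted p = 0.0433). The same held in the eds1-2 line (log2 change −0.54, SE 0.17, edgeR adjusted p = 0.0199). The part of this difference in the results below was not tested. *EDS1* stood at 13.5 to 16 CPM in the eds1-2 line and at 129.8 to 173 CPM in TPR1-GFP. *ICS1* stood at 132 to 157 CPM in the sid2-1 line, an allele that its transcript level does not test. The leaf label was set against markers, and all 5 mesophyll markers were abundant, with summed levels of 65002 to 75432 CPM in Col-0. Those 5 were called lower in TPR1-GFP, at 32727 to 37466 CPM, and in the sid2-1 line, at 44190 to 47316 CPM, while the eds1-2 line held 57412 to 64957 CPM and 1 lower call against Col-0. The 3 guard cell markers summed to 83.1 to 103 CPM in Col-0, 64.4 to 68.9 CPM in TPR1-GFP, 78.6 to 85.3 CPM in the sid2-1 line and 66.3 to 105 CPM in the eds1-2 line. The 3 vascular markers summed to 212 to 297, 224 to 245, 236 to 254 and 361 to 407 CPM and the 2 trichome markers to 4.77 to 9.98, 2.47 to 2.84, 4.75 to 6.75 and 6.37 to 8.47 CPM in the same order. The root marker *PYK10* reached at most 8.79 CPM, in the sid2-1 line, and the flower marker *AG* at most 2.26 CPM, in the eds1-2 line, while *WER* and *AP3* were not analysed here. The part of these shifts in the results below was not tested, and in bulk leaves fewer cells of a type and less RNA per cell cannot be told apart. The series text states 3 independent experiments without saying which library came from which, and p-values here reflect the spread between the 3 libraries of a genotype.

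Per the RefSeq annotation of TAIR10.1, all 21 genes encode a TIR domain, 15 also an NB-ARC domain, and none an LRR domain. The 6 with a TIR domain and no NB-ARC are *AT1G47370*, *AT1G57630*, *AT1G72920*, *AT2G20142*, *AT5G38344* and *AT5G44910*. The descriptions and the domain notes thus group the genes differently, with 9 described as TIR domain proteins and 6 annotated without NB-ARC. Predicted proteins run from 172 residues for *AT1G57630* to 964 residues for *AT4G23440*, and *RLM3* has 19 annotated proteins of 513 to 801 residues. On the map, 12 genes lie on chromosome 1, 1 on chromosome 2, 1 on chromosome 3, 3 on chromosome 4 and 4 on chromosome 5. Chromosome 1 holds 7 of them within 25.1 kb (positions 27420939 to 27445997), from *AT1G72870* to *AT1G72950*, and the neighbours *CHS1* and *AT1G17615*, which are 1031 bases apart. The chromosome 3 gene, *AT3G04210*, lies 16.6 Mb from *EDS1*. For 17 genes no stretch of 50 exon bases occurs elsewhere in the genome, so reads of that length have 1 source. The exceptions are *AT1G72910*, with 22.8% of its stretches elsewhere, mainly in the neighbouring gene *TIR* (AT1G72930), *AT1G72920* and *AT1G72940*, which share 168 stretches with each other (17.9% and 12.4% of theirs occur elsewhere), and *AT5G44910* with 10 of 1155 stretches. The gene bodies of 5 members overlap another gene: *CHS1* overlaps *AT1G17600*, *AT1G72870* overlaps *AT1G72860*, *AT1G72950* overlaps *AT1G09357*, *AT4G23440* overlaps *AT4G23450* and *CHL1* overlaps *AT5G40100*. Whether counting used strand is not given in the sources used here, so reads from the bases where such a pair overlaps cannot be told apart.

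Most of the truncated genes rose with the TPR1-GFP transgene and were low again where eds1-2 was added, while sid2-1 left most of them high. Set against Col-0, with 3 libraries each, TPR1-GFP had 17 of 21 called higher at an edgeR adjusted p under 0.05 and 1 called lower, where 27.5% of all 18877 genes were called higher and 26.4% lower. Of the 17, 14 rose by at least 1 log2 unit, a size that 12% of all genes reached upwards and 10.1% downwards, and no member fell that far. The 17 higher and the 1 lower members are those whose 3 libraries of 1 genotype all lie beyond the 3 of the other, as for 31.1% of all genes upwards and 30% downwards. In TPR1-GFP eds1-2 against TPR1-GFP, 15 were lower and 1 higher, where 27.7% of all genes were lower and 25.2% higher, and 12 fell by at least 1 log2 unit (9.89% of all genes) and 0 rose that far by edgeR (10.3%). Without overlap of libraries 17 lay lower and 1 higher there, as 32.2% and 28.2% of all genes did. In TPR1-GFP sid2-1 against TPR1-GFP, 3 were higher and 1 lower, against 9.7% and 7.14% of all genes, which is not far from the background, and 2 and 0 passed 1 log2 unit (3.21% and 1.59% of all genes). There 4 members lay higher and 3 lower without overlap of libraries, near the 20.1% and 19.8% of all genes. The double lines set against each other gave 13 lower and 1 higher in eds1-2 than in sid2-1, where 19.5% of all genes were lower and 14.9% higher, and 11 fell by at least 1 log2 unit (8.49%), while 0 rose that far by edgeR (4.28%). Their libraries did not overlap for 15 lower and 1 higher members, against 26.7% and 23% of all genes. Against Col-0 the sid2-1 line had 16 higher and 1 lower (22.1% and 19.9% of all genes), and the eds1-2 line had 2 higher and 5 lower (9.48% and 8.02%). The count of 2 higher members in the eds1-2 line is near the background. Past 1 log2 unit, the sid2-1 line had 14 higher and 0 lower by edgeR (10.3% and 4.11% of all genes), and the eds1-2 line again 2 higher and 5 lower (4.89% and 2.95%). Libraries did not overlap with Col-0 for 15 higher and 1 lower members in the sid2-1 line (27.5% and 26.3% of all genes) and for 3 higher and 5 lower in the eds1-2 line (15.6% and 19.2%). The median log2 change of the 21 was 1.27 in TPR1-GFP against Col-0, 0.17 in sid2-1 against TPR1-GFP and −1.28 in eds1-2 against TPR1-GFP, and the same medians hold with the genes that have no counts in a group at their bound. It was −1.09 in eds1-2 against sid2-1, 1.45 in the sid2-1 line against Col-0, and −0.06 in the eds1-2 line against Col-0 over the 19 members with counts there. Medians over all genes tested lay between −0.05 and 0.01 in the 6 comparisons. *AT1G17615* and *AT5G38344* had no counts in Col-0 or eds1-2 and entered the table and the tests through the other 2 genotypes, so they had to differ. Without them 15 of 19 were higher and 1 lower in TPR1-GFP against Col-0, 13 lower and 1 higher in eds1-2 against TPR1-GFP, 11 lower and 1 higher in eds1-2 against sid2-1, and 14 higher and 1 lower in the sid2-1 line against Col-0. *AT1G72870* passed the low-count filter only through TPR1-GFP, where it is highest. It is still among those 15, and among the 14 that rose by at least 1 log2 unit in TPR1-GFP. The 6 comparisons share libraries, so their counts are set side by side and not tested against each other. Scaled by library totals alone, the median of all genes in TPR1-GFP against Col-0 moved to 0.26 and 72.9% of all calls were higher instead of 51.0%, and the members then had 19 higher and 1 lower.

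**Figure D1:**
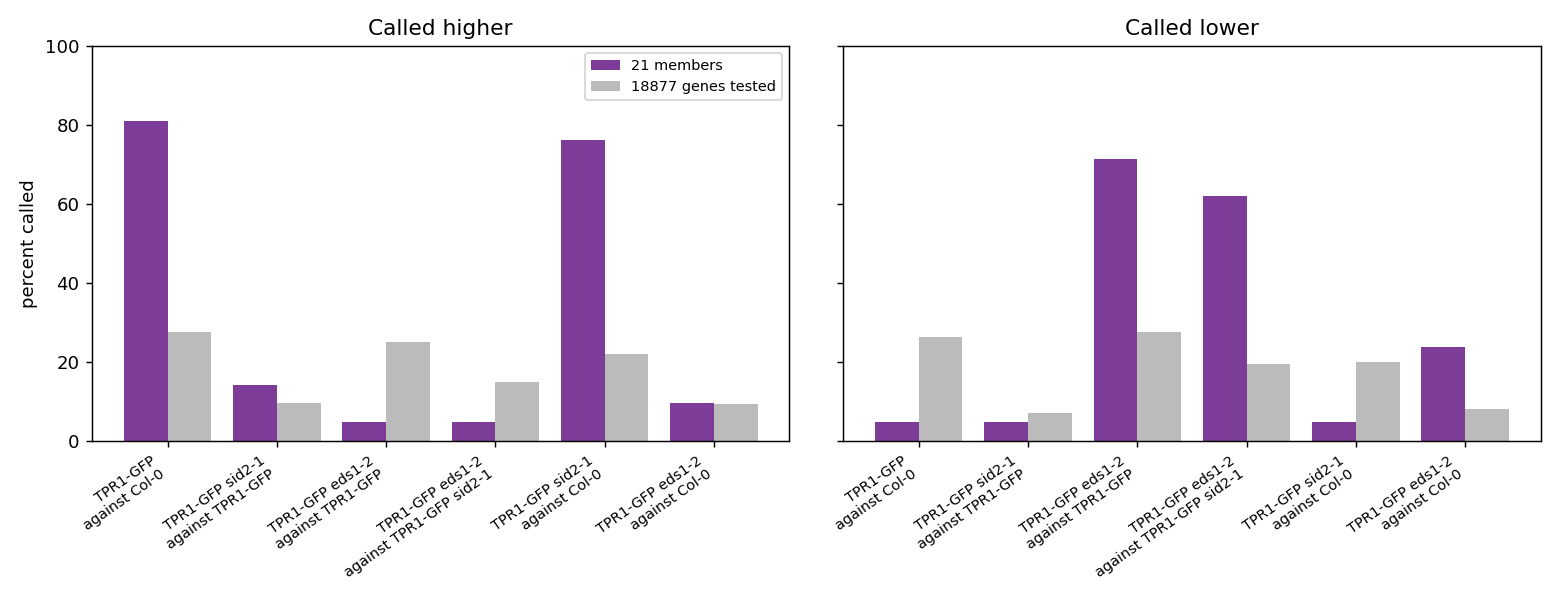
Percent of the 21 truncated TIR and TIR-NBS genes (purple) and of all 18877 genes tested (grey) that were called higher (left) or lower (right) at an edgeR adjusted p under 0.05, in each of the 6 comparisons of genotypes with 3 libraries each. The purple bars stand above the grey ones on the higher side in TPR1-GFP and TPR1-GFP sid2-1 against Col-0 (17 and 16 of 21) and on the lower side in TPR1-GFP eds1-2 against TPR1-GFP and against TPR1-GFP sid2-1 (15 and 13 of 21).

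The 250 bases upstream of 7 of these genes are shown, from RefSeq TAIR10.1 and read 5′ to 3′ on the strand of the gene. The first 5 belong to the members with the largest falls in eds1-2 against TPR1-GFP, and the last 2 to those called higher than Col-0 in all 3 TPR1-GFP lines. In the eds1-2 line that count, 2 of 21, is near the 9.48% of all genes called higher there. Capitals mark TTGACC or TTGACT on either strand, the core of the W-box that WRKY transcription factors bind, which reads as GGTCAA or AGTCAA on the other strand. Such a core stood in 11 of the 21 windows (52.4%), each time TTGACT, and in 28.4% of the windows of 27443 genes of the reference. TTGACT alone was in 19.1% of all windows, and TTGACC was in none of the 21 and in 12.2% of all. TGACG, the core that TGA factors bind, was in 7 of 21 (33.3%, against 18.6% of all), and CACGTG, the G-box, in 1 (4.76%, against 6.49%). A TTGACG stretch would hold TGACG and neither of the cores marked. Of the 7 windows shown, those of *AT1G17615* and *AT1G57630* hold neither core. The shares are descriptions of sequence and show no binding.
AT1G17615, chr1:6059139-6059388, plus strand: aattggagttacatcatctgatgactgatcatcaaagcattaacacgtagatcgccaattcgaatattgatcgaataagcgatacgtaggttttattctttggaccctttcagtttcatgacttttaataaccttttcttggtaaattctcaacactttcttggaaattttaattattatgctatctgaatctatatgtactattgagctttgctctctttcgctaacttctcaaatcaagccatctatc
AT5G38344, chr5:15325535-15325784, plus strand: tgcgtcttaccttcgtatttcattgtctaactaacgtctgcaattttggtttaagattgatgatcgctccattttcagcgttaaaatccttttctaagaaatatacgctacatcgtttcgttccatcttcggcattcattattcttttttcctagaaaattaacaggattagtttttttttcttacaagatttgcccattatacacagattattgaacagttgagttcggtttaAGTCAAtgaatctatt
AT1G57630, chr1:21345195-21345444, plus strand: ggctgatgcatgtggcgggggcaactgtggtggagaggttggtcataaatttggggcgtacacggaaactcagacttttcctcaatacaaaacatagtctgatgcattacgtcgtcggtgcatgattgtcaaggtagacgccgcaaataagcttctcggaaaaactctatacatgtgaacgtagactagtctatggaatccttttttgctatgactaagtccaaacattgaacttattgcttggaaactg
AT1G66090, chr1:24601783-24602032, plus strand: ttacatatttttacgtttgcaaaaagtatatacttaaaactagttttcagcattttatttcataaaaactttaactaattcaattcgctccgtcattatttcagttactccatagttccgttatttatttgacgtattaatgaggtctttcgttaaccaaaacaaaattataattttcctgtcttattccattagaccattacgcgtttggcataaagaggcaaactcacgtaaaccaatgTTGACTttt
AT2G20142, chr2:8695124-8695373, plus strand: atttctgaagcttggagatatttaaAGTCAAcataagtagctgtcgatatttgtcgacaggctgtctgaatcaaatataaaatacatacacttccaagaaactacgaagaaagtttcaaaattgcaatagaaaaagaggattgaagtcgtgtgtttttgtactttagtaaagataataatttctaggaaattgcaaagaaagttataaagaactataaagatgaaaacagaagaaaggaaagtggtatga
AT1G47370, chr1:17368704-17368953, minus strand: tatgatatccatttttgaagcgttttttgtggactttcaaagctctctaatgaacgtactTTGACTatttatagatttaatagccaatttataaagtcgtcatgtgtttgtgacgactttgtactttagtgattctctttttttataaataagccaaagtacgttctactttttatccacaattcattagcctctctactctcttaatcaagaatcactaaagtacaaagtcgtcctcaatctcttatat
AT5G44910, chr5:18137099-18137348, plus strand: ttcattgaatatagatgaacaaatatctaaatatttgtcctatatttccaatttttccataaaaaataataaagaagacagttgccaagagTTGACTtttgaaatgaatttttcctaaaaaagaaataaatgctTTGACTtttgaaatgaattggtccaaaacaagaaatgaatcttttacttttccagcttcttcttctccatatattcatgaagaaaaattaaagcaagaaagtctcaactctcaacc

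Of the 6 genes with a TIR domain and no NB-ARC, 5 were called higher in TPR1-GFP than in Col-0, where 27.5% of all genes were. In the sid2-1 line all 6 were higher than in Col-0, where 22.1% of all genes were. Both counts hold *AT5G38344*, which has no count in Col-0 and had to differ. *AT1G57630*, the shortest at 172 residues, measured 6.3, 0.894 and 1.25 CPM without the transgene (Col-0) and 18.8, 24.7 and 29.9 with TPR1-GFP alone. With sid2-1 added it measured 29.4, 27.3 and 37.7 CPM, and with eds1-2 added 0.289, 0.312 and 0.238. All libraries of TPR1-GFP and the sid2-1 line lay above Col-0, and all 3 eds1-2 libraries lay below all 3 of Col-0, whose replicate 1 stood apart from its other libraries. It rose 9.0-fold in TPR1-GFP (log2 change 3.14, SE 0.50, edgeR adjusted p = 0.000378) and fell 86.6-fold in the eds1-2 line against TPR1-GFP (log2 change −6.42, SE 0.69, edgeR adjusted p = 3.2e-05). Without Col-0 replicate 1 the log2 change in TPR1-GFP was 4.48 and that in the sid2-1 line against Col-0 was 4.85, in place of 3.14 and 3.51. Against Col-0 the eds1-2 line was lower, with a log2 change of −3.28 (SE 0.81) and edgeR adjusted p = 0.0181, a call that is lost without any 1 of the eds1-2 libraries (adjusted p = 0.051, 0.0704 and 0.0604 without replicates 1, 2 and 3). Without Col-0 replicate 1 this change was −1.94.

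*AT2G20142* had the same order of genotypes, with 9.85, 4.62 and 3.31 CPM without the transgene (Col-0) and 33.4, 46.1 and 54.8 with TPR1-GFP alone. The sid2-1 libraries held 52.3, 54.2 and 55.1 CPM and the eds1-2 libraries 1.68, 2.67 and 1.43. The eds1-2 libraries lay lowest, Col-0 above them, and TPR1-GFP and the sid2-1 line together above both, without overlap. It rose 7.77-fold in TPR1-GFP (log2 change 2.93, SE 0.34, edgeR adjusted p = 4.75e-05) and fell 22.9-fold in eds1-2 against TPR1-GFP (log2 change −4.53, SE 0.38, edgeR adjusted p = 7.54e-06). Its lower level in eds1-2 than in Col-0 (log2 change −1.60, SE 0.40, edgeR adjusted p = 0.0182) is lost without eds1-2 replicate 1 (adjusted p = 0.0545) or replicate 3 (adjusted p = 0.0673). *AT5G38344* had no count in any Col-0 or eds1-2 library, while TPR1-GFP alone gave 0.647, 0.859 and 0.916 CPM and the line with sid2-1 0.703, 0.991 and 0.912. Every library of the latter 2 genotypes thus held counts and no other library did, with 71 counts in TPR1-GFP and 65 in the sid2-1 line. From a floor of 3 counts over the 3 libraries of a genotype, which covers counting error only, it was at least 17.5-fold higher in TPR1-GFP than in Col-0 and at least 17.3-fold lower in eds1-2 than in TPR1-GFP. These bounds are given without p-values, since the gene passed the low-count filter only through the genotypes where it is high.

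The other 2 of this kind that rose in TPR1-GFP were not called lower in eds1-2. *AT1G47370* measured 1.35, 0.894 and 0.162 CPM without the transgene (Col-0), 2.84, 2.55 and 2.87 with TPR1-GFP alone, 4.32, 2.39 and 2.6 with sid2-1 added and 2.6, 3.92 and 2.19 with eds1-2 added. All 9 libraries with the transgene lay above the 3 of Col-0, which themselves spread widely. It was higher than Col-0 in TPR1-GFP (log2 change 1.81, SE 0.49, edgeR adjusted p = 0.00827), in the sid2-1 line (log2 change 1.98, SE 0.49, edgeR adjusted p = 0.00777) and in the eds1-2 line (log2 change 1.90, SE 0.49, edgeR adjusted p = 0.0215). The last call is lost without Col-0 replicate 2 (adjusted p = 0.0544) or eds1-2 replicate 2 (adjusted p = 0.0729). Without Col-0 replicate 1 the 3 changes were 2.44, 2.60 and 2.52. Without Col-0 replicate 3 the change in TPR1-GFP was 1.29. *AT5G44910* measured 0.45, 0.447 and 0.566 CPM without the transgene (Col-0), 0.862, 1.29 and 1.04 with TPR1-GFP alone, 1.86, 1.94 and 1.28 with sid2-1 added and 1.11, 2.41 and 1.29 with eds1-2 added. Again every library with the transgene lay above Col-0, and the mean levels of the double lines lay above that of TPR1-GFP without a call between them. Its changes against Col-0 were 1.11 (SE 0.37), 1.77 (SE 0.36) and 1.70 (SE 0.36) log2 units, with edgeR adjusted p = 0.0223, 0.00261 and 0.00805. The first is lost without Col-0 replicate 1 (adjusted p = 0.058), Col-0 replicate 2 (0.0611) or TPR1-GFP replicate 2 (0.0851), and its counts are low, with 32 in Col-0 and 95 in TPR1-GFP over 3 libraries. In eds1-2 against TPR1-GFP the changes of the pair were 0.08 (SE 0.43) and 0.59 (SE 0.32), with adjusted p = 0.885 and 0.146.

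**Figure D2:**
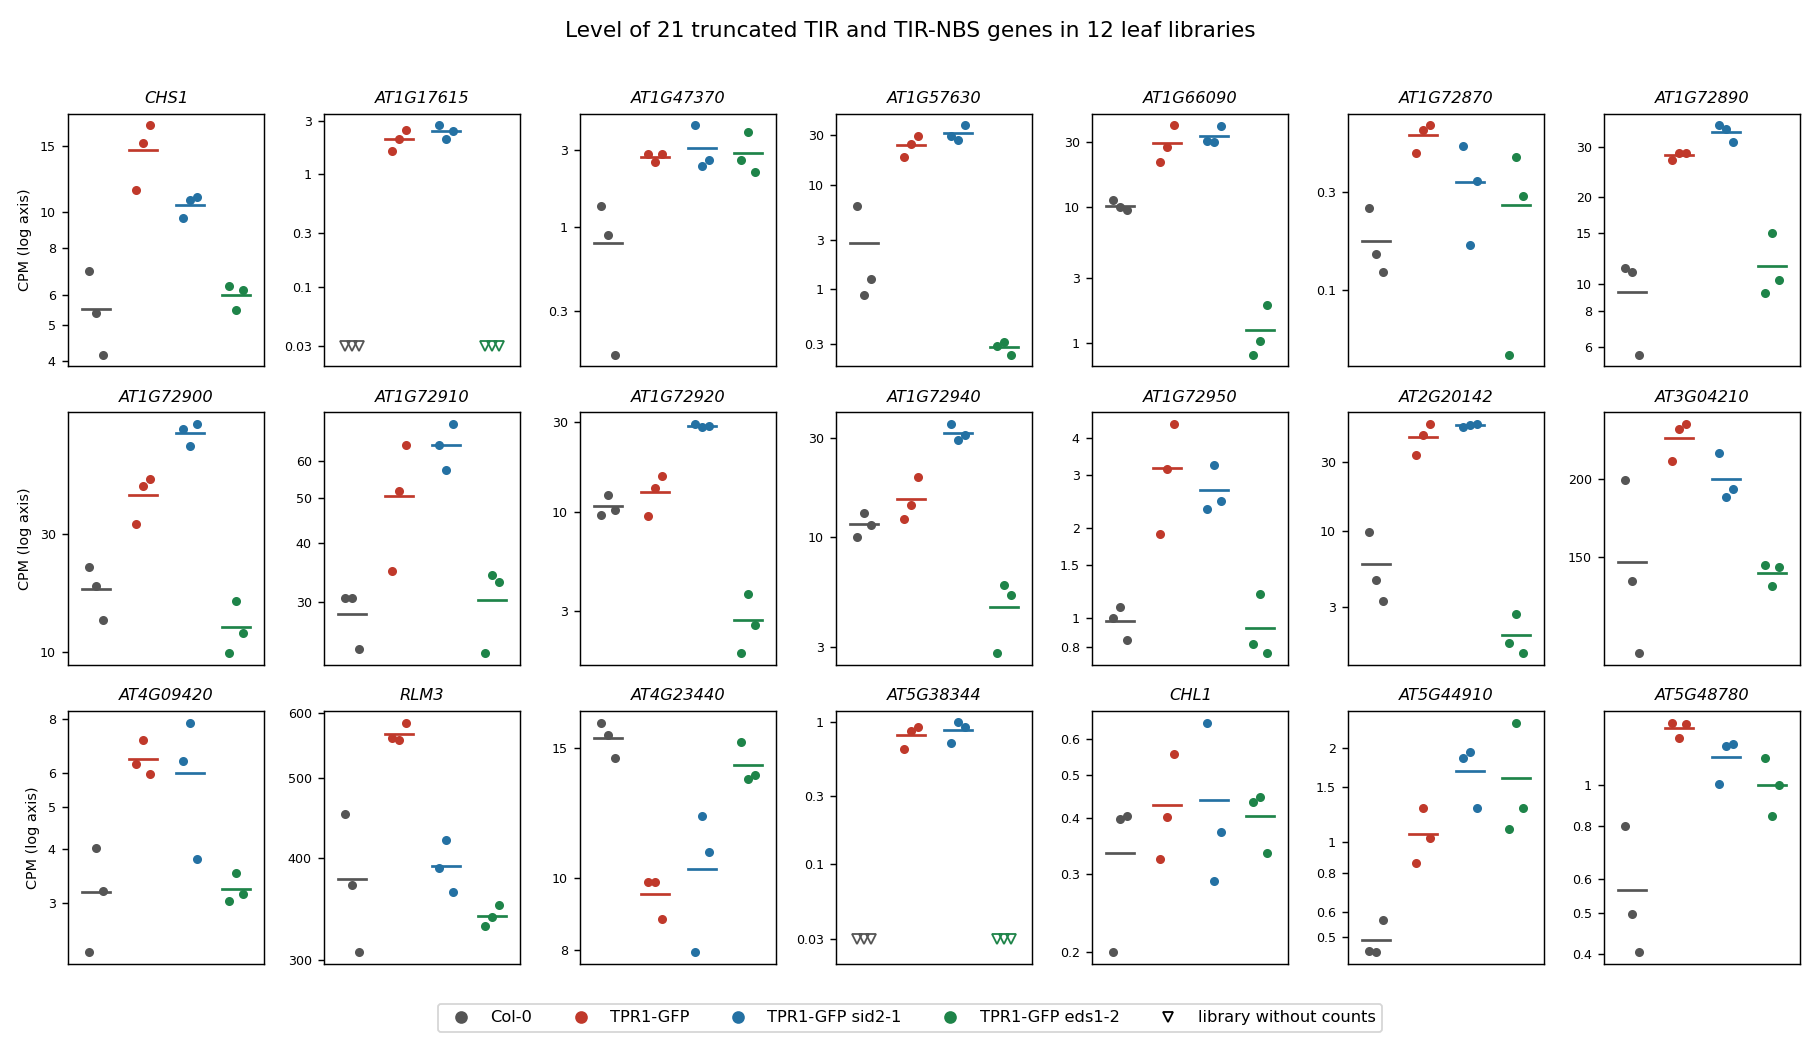
Level of each of the 21 genes in the 12 libraries, in counts per 1000000 counts (CPM) on a log axis whose range differs between panels. Points are libraries, lines are means of 3 and open triangles mark libraries without counts. AT1G17615 and AT5G38344 have counts in TPR1-GFP and TPR1-GFP sid2-1 and none in Col-0 or TPR1-GFP eds1-2, while AT1G47370 and AT5G44910 lie above Col-0 in all 9 libraries with the transgene.

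Among the genes with an NB-ARC domain, the neighbours *CHS1* and *AT1G17615* both stood higher in TPR1-GFP and lower in eds1-2. *CHS1* measured 6.95, 5.37 and 4.16 CPM without the transgene (Col-0), 11.5, 15.3 and 17.1 with TPR1-GFP alone, 9.64, 10.8 and 11 with sid2-1 added and 6.35, 5.48 and 6.2 with eds1-2 added. TPR1-GFP and sid2-1 lay above Col-0 in every library, the sid2-1 libraries lay below those of TPR1-GFP, and Col-0 and eds1-2 overlapped. It rose 2.71-fold in TPR1-GFP (log2 change 1.42, SE 0.19, edgeR adjusted p = 9e-05) and fell 2.44-fold in eds1-2 against TPR1-GFP (log2 change −1.29, SE 0.18, edgeR adjusted p = 0.000164). Its change in sid2-1 against TPR1-GFP did not pass (log2 change −0.48, SE 0.18, edgeR adjusted p = 0.0812), and it passed without TPR1-GFP replicate 1 (adjusted p = 0.0283). *AT1G17615* had no count in Col-0 or eds1-2, while TPR1-GFP alone gave 1.62, 2.06 and 2.47 CPM and the line with sid2-1 2.76, 2.06 and 2.43, from 179 and 177 counts over 3 libraries. The same 2 genotypes as for *AT5G38344* thus held all of its counts. It was at least 44.1-fold higher in TPR1-GFP than in Col-0, at least 43.6-fold lower in eds1-2 than in TPR1-GFP and at least 51.4-fold lower than in the sid2-1 line, again without a p-value for the same reason.

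*AT1G66090* measured 11.2, 9.94 and 9.54 CPM without the transgene (Col-0), 21.3, 27.9 and 40.2 with TPR1-GFP alone, 30.6, 30.1 and 39.6 with sid2-1 added and 0.818, 1.02 and 1.91 with eds1-2 added. The eds1-2 libraries lay lowest, Col-0 above them and the other 2 lines highest, without overlap. It rose 2.88-fold in TPR1-GFP (log2 change 1.54, SE 0.24, edgeR adjusted p = 0.000314), fell 23.6-fold in eds1-2 against TPR1-GFP (log2 change −4.57, SE 0.30, edgeR adjusted p = 1.85e-06) and was 8.17-fold lower in eds1-2 than in Col-0 (log2 change −3.03, SE 0.31, edgeR adjusted p = 9.73e-05), calls that no left-out library ended. *AT4G09420* measured 2.3, 4.03 and 3.19 CPM without the transgene (Col-0), 6.29, 7.16 and 5.97 with TPR1-GFP alone, 6.38, 7.84 and 3.78 with sid2-1 added and 3.03, 3.52 and 3.15 with eds1-2 added. TPR1-GFP stood apart from Col-0 and eds1-2, while replicate 3 of the sid2-1 line fell into the range of Col-0. It rose 2.06-fold in TPR1-GFP (log2 change 1.03, SE 0.26, edgeR adjusted p = 0.00536) and fell 2.02-fold in eds1-2 (log2 change −1.002, SE 0.26, edgeR adjusted p = 0.00632). Its calls for the sid2-1 line, higher than Col-0 (adjusted p = 0.0152) and than eds1-2 (adjusted p = 0.0207), are lost without sid2-1 replicate 2 (adjusted p = 0.0738 and 0.0989) and without sid2-1 replicate 1 (adjusted p = 0.051 and 0.0672), and the second also without eds1-2 replicate 1 (0.0654) or replicate 3 (0.0636). *AT5G48780* measured 0.80, 0.497 and 0.404 CPM without the transgene (Col-0), 1.4, 1.29 and 1.39 with TPR1-GFP alone, 1.0, 1.24 and 1.25 with sid2-1 added and 1.16, 0.846 and 1.0 with eds1-2 added. TPR1-GFP lay above every other library and eds1-2 above Col-0, an intermediate position that passed neither against TPR1-GFP (log2 change −0.44, SE 0.27, edgeR adjusted p = 0.181) nor against Col-0 (log2 change 0.83, SE 0.30, edgeR adjusted p = 0.0775), the second of which passed without Col-0 replicate 1 (adjusted p = 0.0301). It rose 2.44-fold in TPR1-GFP (log2 change 1.27, SE 0.29, edgeR adjusted p = 0.00288). In the sid2-1 line it was higher than Col-0 (adjusted p = 0.0133), a call lost without Col-0 replicate 3 (adjusted p = 0.063).

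In the cluster on chromosome 1, 5 of 7 genes were higher in TPR1-GFP than in Col-0, where 27.5% of all genes were. Among the 5 is *AT1G72870*, which passed the low-count filter only through TPR1-GFP. In eds1-2 against TPR1-GFP 6 of the 7 were lower, where 27.7% of all genes were. In sid2-1 against TPR1-GFP 3 were higher, where 9.7% of all genes were. The 3 are all of the members called higher in that comparison. *AT1G72920* measured 9.7, 12.4 and 10.3 CPM without the transgene (Col-0), 9.52, 13.5 and 15.6 with TPR1-GFP alone, 29.5, 28.5 and 28.7 with sid2-1 added and 1.78, 3.7 and 2.53 with eds1-2 added. *AT1G72940*, with which it shares stretches of sequence, measured 10.1, 13.1 and 11.5 CPM without the transgene (Col-0), 12.2, 14.2 and 19.4 with TPR1-GFP alone, 34.9, 29.1 and 30.9 with sid2-1 added and 2.79, 5.92 and 5.29 with eds1-2 added. Both overlapped between Col-0 and TPR1-GFP, lay highest in the sid2-1 line and lowest in the eds1-2 line, each time without overlap. In sid2-1 against TPR1-GFP *AT1G72920* was 2.25-fold higher (log2 change 1.17, SE 0.20, edgeR adjusted p = 0.00429) and *AT1G72940* 2.09-fold higher (log2 change 1.05, SE 0.22, edgeR adjusted p = 0.0103). In eds1-2 they were lower than in Col-0, with log2 changes of −2.01 (SE 0.24) and −1.30 (SE 0.25) (edgeR adjusted p = 0.000243 and 0.0042), and lower than in sid2-1, with −3.43 (SE 0.24) and −2.75 (SE 0.24). Their changes in TPR1-GFP against Col-0 were 0.25 and 0.40 (adjusted p = 0.322 and 0.157), and both passed when scaled by library totals alone, at 0.51 and 0.65. Reads from the stretches they share have no single source, so the 2 genes are not fully separate measurements.

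*AT1G72900*, also higher in sid2-1 than in TPR1-GFP, measured 22.2, 18.5 and 13.5 CPM without the transgene (Col-0), 33.1, 46.9 and 50.4 with TPR1-GFP alone, 79.8, 68.3 and 84 with sid2-1 added and 9.87, 16 and 12 with eds1-2 added. It rose in a first step in TPR1-GFP (log2 change 1.27, SE 0.22, edgeR adjusted p = 0.000526) and stood 1.79-fold higher again in sid2-1 (log2 change 0.83, SE 0.21, edgeR adjusted p = 0.0219), while eds1-2 overlapped Col-0. Leaving out TPR1-GFP replicate 2 (adjusted p = 0.0602), sid2-1 replicate 1 (0.0653) or sid2-1 replicate 3 (0.0638) ends the second call. *AT1G72890* measured 11.4, 11 and 5.66 CPM without the transgene (Col-0), 27, 28.5 and 28.7 with TPR1-GFP alone, 35.8, 34.6 and 31.2 with sid2-1 added and 9.24, 15 and 10.3 with eds1-2 added. Here the 2 lines without eds1-2 lay together above Col-0 and eds1-2, and the rise in TPR1-GFP was 3.1-fold (log2 change 1.60, SE 0.23, edgeR adjusted p = 0.000186). *AT1G72950* measured 1.0, 1.09 and 0.849 CPM without the transgene (Col-0), 1.9, 3.15 and 4.46 with TPR1-GFP alone, 2.31, 3.26 and 2.47 with sid2-1 added and 0.818, 1.2 and 0.763 with eds1-2 added. The same arrangement held, with a rise of 3.22-fold in TPR1-GFP (log2 change 1.69, SE 0.32, edgeR adjusted p = 0.00101) and a fall of 3.35-fold in eds1-2 (log2 change −1.76, SE 0.32, edgeR adjusted p = 0.000836). *AT1G72910* ranged over 23.8 to 30.7 CPM without the transgene, 35 to 64.9 with TPR1-GFP alone, 57.4 to 71.8 with sid2-1 added and 23.3 to 34.3 with eds1-2 added. It rose by 0.83 (SE 0.21) log2 units in TPR1-GFP, and its log2 change of −0.74 (SE 0.21) in eds1-2 against TPR1-GFP no longer passes once TPR1-GFP replicate 3 (adjusted p = 0.0605) or eds1-2 replicate 1 (adjusted p = 0.051) is left out. *AT1G72870*, at the edge of the cluster, was counted 5, 3 and 3 times without the transgene, 13, 21 and 16 times with TPR1-GFP alone, 10, 4 and 10 times with sid2-1 added and 1, 10 and 6 times with eds1-2 added. With 50 counts in TPR1-GFP and 11 in Col-0, it passed the low-count filter only through TPR1-GFP, the genotype where it is highest. Its log2 change of 1.71 (SE 0.59) against Col-0 is therefore given without a p-value. At this depth the call depends on single libraries. It is lost without Col-0 replicate 2, Col-0 replicate 3, TPR1-GFP replicate 2 or TPR1-GFP replicate 3. Its lower level in eds1-2 than in TPR1-GFP is not called, and is called without eds1-2 replicate 2.

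**Figure D3:**
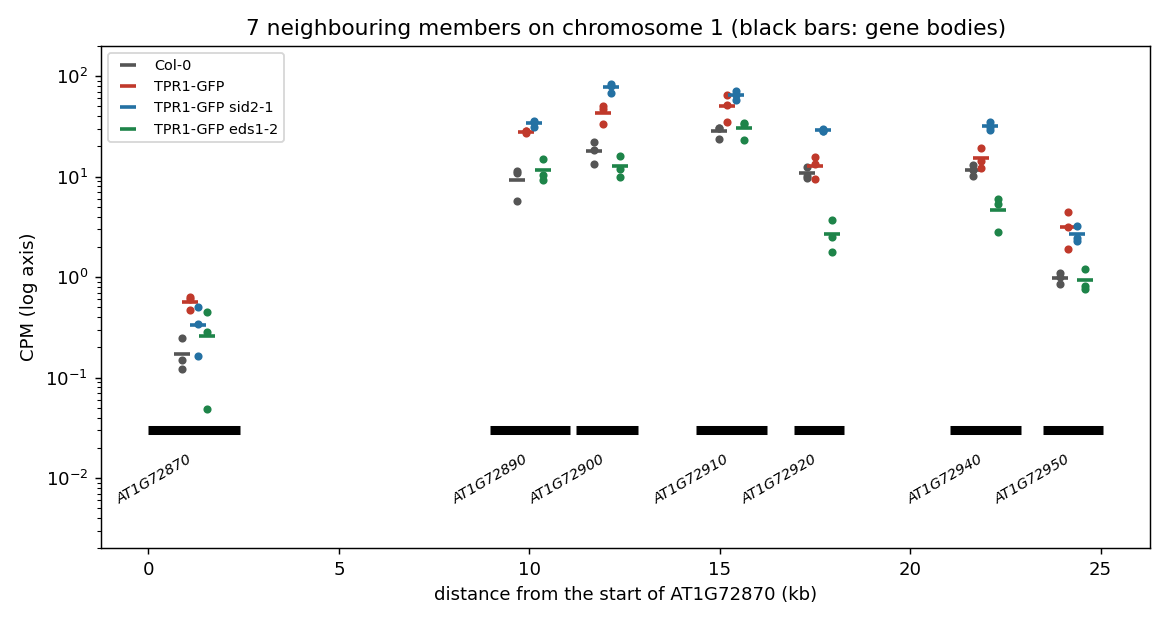
Level in counts per 1000000 counts (CPM, log axis) of the 7 members on chromosome 1 against their distance from the start of AT1G72870 in kb. Points are libraries, dashes are means of 3 per genotype and black bars are the gene bodies. AT1G72920 and AT1G72940 lie highest in TPR1-GFP sid2-1 (28.5 to 29.5 and 29.1 to 34.9 CPM) and lowest in TPR1-GFP eds1-2 (1.78 to 3.70 and 2.79 to 5.92 CPM).

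The 2 most abundant members changed by less than 1 log2 unit in each of the 6 comparisons. *RLM3* and *AT3G04210* together took 79.7 to 82.2% of the summed level of all 21 without the transgene, 70.3 to 77.2% with TPR1-GFP alone, 57.2 to 61.99% with sid2-1 added and 81.04 to 85.5% with eds1-2 added. Divided by exon length, *RLM3* stood at 91.6 CPM per kb in Col-0 and *AT3G04210* at 60.8, while the next, *AT1G72910*, stood at 16 and *CHL1* at 0.184. In TPR1-GFP *AT2G20142* reached 43.4 and *AT1G57630* 34.3 CPM per kb, after 5.74 and 3.95 in Col-0. *RLM3* measured 453, 371 and 307 CPM without the transgene (Col-0), 560.1, 556 and 584 with TPR1-GFP alone, 389, 420.4 and 363 with sid2-1 added and 330.4, 339 and 350.0 with eds1-2 added. TPR1-GFP stood above every other library, Col-0 overlapped both double lines, and the sid2-1 libraries lay above those of eds1-2 without a call. It rose 1.52-fold in TPR1-GFP (log2 change 0.59, SE 0.13, edgeR adjusted p = 0.00213) and was lower than TPR1-GFP in eds1-2 (log2 change −0.74, SE 0.13, edgeR adjusted p = 0.000519) and in sid2-1 (log2 change −0.54, SE 0.13, edgeR adjusted p = 0.0162), the 1 member called lower there. Leaving out TPR1-GFP replicate 2 (adjusted p = 0.0508), TPR1-GFP replicate 3 (0.0595) or sid2-1 replicate 3 (0.0564) ends the sid2-1 call. *AT3G04210* measured 199.5, 137 and 105 CPM without the transgene (Col-0), 213, 241 and 245 with TPR1-GFP alone, 220.0, 187 and 193 with sid2-1 added and 146, 135 and 144 with eds1-2 added. Col-0 replicate 1 was the highest Col-0 library by far and reached the range of the sid2-1 line. The gene rose 1.62-fold in TPR1-GFP (log2 change 0.66, SE 0.18, edgeR adjusted p = 0.00908) and fell 1.65-fold in eds1-2 (log2 change −0.72, SE 0.18, edgeR adjusted p = 0.00594), whereas the sid2-1 line did not pass against Col-0 (adjusted p = 0.069, and 0.0018 without Col-0 replicate 1) or against eds1-2 (adjusted p = 0.0518).

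Col-0 replicate 1 was the highest Col-0 library for 12 of the 19 members with counts there, and replicate 3 the lowest for 13. In TPR1-GFP, replicate 3 was the highest for 17 of 21 members and replicate 1 the lowest for 16. The members thus shared their spread between libraries of a genotype, and their calls are not independent of each other.

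A single gene went against the rest. *AT4G23440*, which encodes the longest protein of the 21, measured 16.3, 15.7 and 14.5 CPM without the transgene (Col-0), 9.88, 9.88 and 8.8 with TPR1-GFP alone, 7.94, 12.1 and 10.8 with sid2-1 added and 15.3, 13.6 and 13.8 with eds1-2 added. TPR1-GFP and sid2-1 lay below Col-0 and eds1-2 in every library. It fell 1.61-fold in TPR1-GFP (log2 change −0.70, SE 0.14, edgeR adjusted p = 0.00121) and was 1.49-fold higher in eds1-2 than in TPR1-GFP (log2 change 0.58, SE 0.14, edgeR adjusted p = 0.004). Its higher level in eds1-2 than in sid2-1 (adjusted p = 0.0221) is lost without eds1-2 replicate 1 (adjusted p = 0.079). *CHL1* was counted 4, 8 and 10 times without the transgene, 9, 14 and 14 times with TPR1-GFP alone, 13, 7 and 11 times with sid2-1 added and 9, 10 and 7 times with eds1-2 added. It was the 1 member with no call in any of the 6 comparisons, its log2 changes against Col-0 were 0.33 (SE 0.42), 0.34 (SE 0.43) and 0.26 (SE 0.44), and a difference was not detectable at this depth.

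Set side by side, 13 members were higher in TPR1-GFP than in Col-0 and lower in eds1-2 than in TPR1-GFP. Taken singly, 27.5% of all genes had the first call and 27.7% the second. The 2 comparisons share the TPR1-GFP libraries. How many of all genes had both calls, or the other joint patterns given here, was not counted, so these counts have no background. Of the 13, 10 had no call between eds1-2 and Col-0, and 3, *AT1G57630*, *AT1G66090* and *AT2G20142*, were lower than Col-0. *AT1G17615* and *AT5G38344*, with no count in Col-0 or eds1-2, are among the 10. The 4 genes that were higher in TPR1-GFP and not called lower in eds1-2 are *AT1G47370*, *AT5G44910*, *AT5G48780* and *AT1G72870*, and the first 2 were above Col-0 in eds1-2 as well. In the sid2-1 line 14 of the 17 genes that rose in TPR1-GFP were also called higher than Col-0, and the exceptions were *RLM3*, *AT3G04210* and *AT1G72870*. The 14 hold *AT1G17615* and *AT5G38344*, which have no count in Col-0 and had to differ. *AT1G72870* is among the 17 after passing the low-count filter only through TPR1-GFP. By domains, the 6 genes without NB-ARC had a median log2 change of 2.37 in TPR1-GFP and −3.19 in eds1-2 against TPR1-GFP, and the 15 with NB-ARC had 1.27 and −1.10, with genes that have no counts in a group at their bound (−3.39 in place of −3.19 from the fitted values). The medians of the 6 hold *AT5G38344* and those of the 15 hold *AT1G17615*, which had to differ. The 15 also hold *AT1G72870*, which passed the low-count filter only through TPR1-GFP. The difference between the 2 kinds was not tested. In eds1-2 against Col-0 the 6 split into 2 higher and 3 lower, and the 15 into 0 higher and 2 lower by edgeR. Of all genes, 9.48% were higher and 8.02% lower there.

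**Figure D4:**
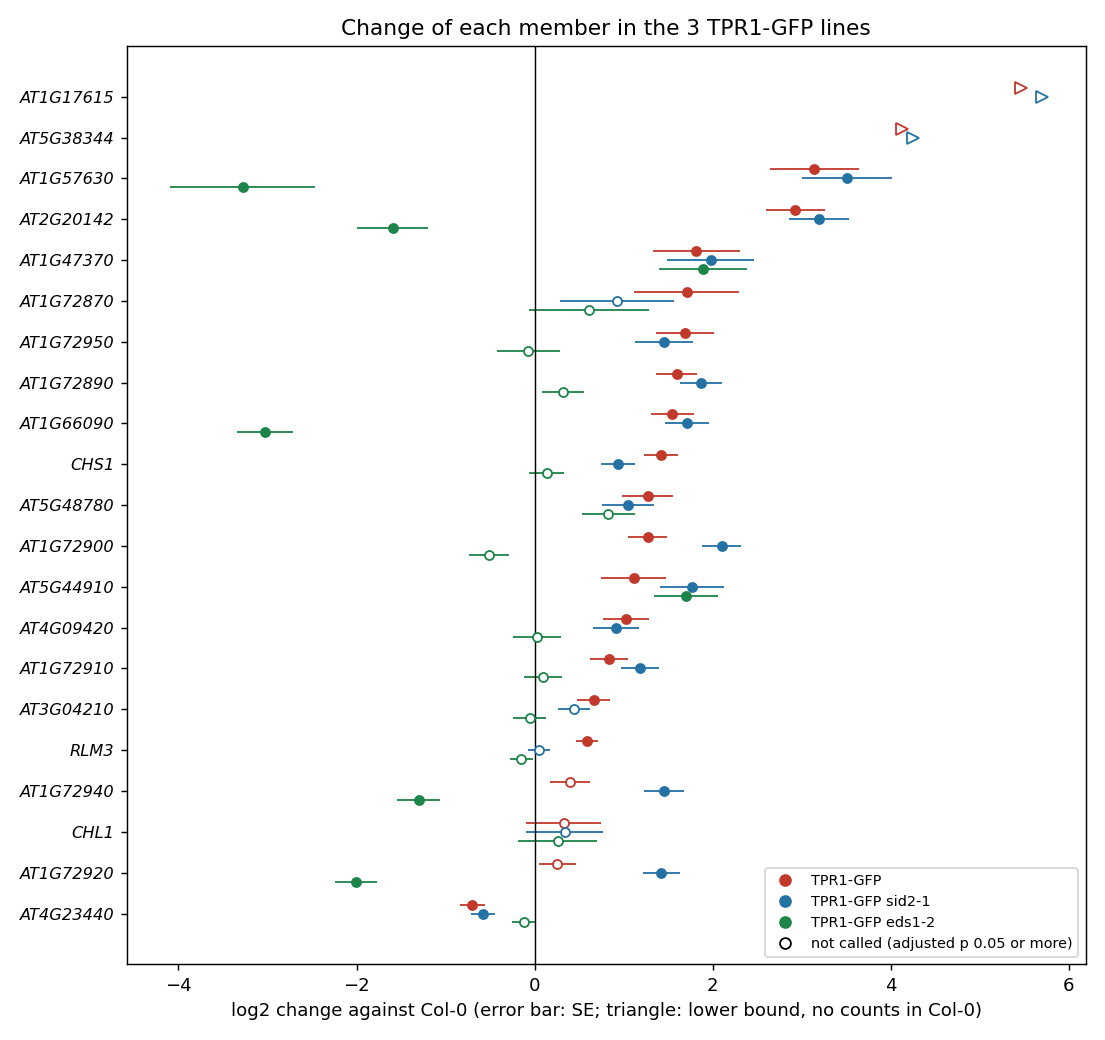
Log2 change of each of the 21 genes against Col-0 in TPR1-GFP (red), TPR1-GFP sid2-1 (blue) and TPR1-GFP eds1-2 (green), with the SE of the edgeR fit to 12 libraries. Open points are not called, and open triangles are lower bounds for the 2 genes with no counts in Col-0. These 2 genes have no green point, since they have no counts in TPR1-GFP eds1-2 either. Red and blue points lie together to the right of 0 for most genes, most green points lie near 0 or left of it, and AT1G47370 and AT5G44910 have all 3 points to the right of 0.

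Most genes of a list drawn around TIR signalling rose in TPR1-GFP and were lower in eds1-2. Of its 16 genes, 14 were higher and 0 lower in TPR1-GFP than in Col-0 by edgeR, where 27.5% of all genes were higher. In eds1-2 against TPR1-GFP 14 were lower, where 27.7% of all genes were, and 13 of 15 without *EDS1*, the gene that eds1-2 affects. Each of these counts holds *AT5G66890*, which passed the low-count filter only through TPR1-GFP and the sid2-1 line, where it is high. The 13 also hold *AT3G48080*, the other *EDS1* gene of the list. The list covers *EDS1* and its partners, the helper receptors, receptors and other proteins reported with truncated TIR proteins, and the importin *MOS6*, and it was drawn up with earlier results of these data known. *PAD4* measured 41.6, 18.1 and 11 CPM without the transgene (Col-0), 111, 147 and 195 with TPR1-GFP alone, 135, 133 and 148 with sid2-1 added and 7.51, 8.2 and 7.48 with eds1-2 added, and *SAG101* spanned 13.3 to 22.2 CPM, 46.7 to 60.8, 52.9 to 57.5 and 19 to 25.7 in that order. *PAD4* was lower in eds1-2 than in Col-0 as well (log2 change −1.60, SE 0.39, edgeR adjusted p = 0.0176), and *SAG101* was not called there (log2 change 0.24, SE 0.18, edgeR adjusted p = 0.374). The helper receptor gene *ADR1* rose by 2.000 (SE 0.21) log2 units in TPR1-GFP, *ADR1-L1* by 1.34 (SE 0.19) and *ADR1-L2* by 1.40 (SE 0.16). In eds1-2 they changed by −1.88 (SE 0.21), −1.28 (SE 0.19) and −1.69 (SE 0.16) against TPR1-GFP. *AT5G66890* measured 0.30, 0 and 0.0404 CPM without the transgene, 0.97, 1.09 and 1.71 with TPR1-GFP alone and 1.96, 1.73 and 1.86 with sid2-1 added, and it had no count with eds1-2. Its level in eds1-2 was at least 26.3-fold below TPR1-GFP, given without a p-value as for the members absent there. *AT1G17600*, which overlaps *CHS1*, rose by 1.27 (SE 0.22) and changed by −1.16 (SE 0.22) in eds1-2. *EXO70B1*, a subunit of the exocyst complex, changed by 0.11 (SE 0.11) in TPR1-GFP, and *MOS6* by −0.23 (SE 0.11), both without a call.

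In sid2-1 against TPR1-GFP 3 of the 16 were lower and 0 higher by edgeR, where 7.14% and 9.7% of all genes were. They were *AT3G48080*, with a log2 change of −2.24 (SE 0.39), *ADR1* with −0.68 (SE 0.20) and *AT5G66910* with −0.57 (SE 0.14). Between the double lines 10 were lower in eds1-2 than in sid2-1 and 0 higher by edgeR (19.5% and 14.9% of all genes), and 9 of 15 were lower without *EDS1*. The 10 and the 9 both hold *AT5G66890*, which has no count in eds1-2. Against Col-0 the sid2-1 line had 12 higher and 1 lower, *MOS6*, where 22.1% and 19.9% of all genes were called. The 12 hold *AT5G66890* too, which passed the low-count filter only through TPR1-GFP and the sid2-1 line. The eds1-2 line had 1 higher than Col-0, *AT5G66910*, and 3 lower, *EDS1*, *PAD4* and *EXO70B1*, against 9.48% and 8.02% of all genes. Without *EDS1*, the gene that eds1-2 affects, 1 of 15 was higher and 2 lower.

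Genes of the same kind that the descriptions leave out were looked up too. *TIR* (AT1G72930), in the chromosome 1 cluster between *AT1G72920* and *AT1G72940*, measured 189, 113 and 113 CPM without the transgene (Col-0), 216, 292 and 284 with TPR1-GFP alone, 190.0, 159.9 and 173 with sid2-1 added and 148, 201 and 188 with eds1-2 added. It rose in TPR1-GFP (log2 change 0.93, SE 0.20, edgeR adjusted p = 0.00252), and in sid2-1 it stood below TPR1-GFP in every library without passing (log2 change −0.60, SE 0.20, edgeR adjusted p = 0.0627). In eds1-2 it was lower than in TPR1-GFP (log2 change −0.56, SE 0.20, edgeR adjusted p = 0.0349). Between eds1-2 and sid2-1 it had no call (log2 change 0.04, SE 0.20, edgeR adjusted p = 0.904). *TIR* and *AT1G72910* share stretches of sequence, so they are not fully separate measurements. *AT2G32140*, described in the table as a transmembrane receptor, measured 3.85, 1.34 and 0.606 CPM without the transgene (Col-0), 12.4, 17.5 and 20.7 with TPR1-GFP alone, 20.2, 18 and 19.6 with sid2-1 added and 0.385, 0.445 and 0.0477 with eds1-2 added. It rose 9.15-fold in TPR1-GFP (log2 change 3.16, SE 0.47, edgeR adjusted p = 0.000241) and fell 56.7-fold in eds1-2 (log2 change −5.81, SE 0.61, edgeR adjusted p = 2.85e-05), the order of levels seen for *AT1G57630*. The authors' deposited table gives the same side of the 0.05 threshold and the same direction for all 63 values of the 21 genes in its 3 comparisons with TPR1-GFP.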

How the data were processed

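Per the labels, TruSeq libraries of polyadenylated leaf RNA were sequenced. TopHat2, HTSeq, limma and TAIR10 are named in the submitters' processing notes, and versions and strand are not given in the sources used here. The deposited table holds raw counts for 18884 genes, log2 CPM values by the authors, and the authors' linear ratios (fold changes), log2 changes and adjusted p-values of TPR1-GFP against each other genotype. The least abundant gene has 101 counts over 12 libraries, so genes with fewer were not analysed here. The members and gene lists were chosen with earlier results of these data known, and any member could be named.

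The counts were tested with edgeR 4.0.16 in R 4.3.3 (quasi-likelihood test, robust, TMM, low-count filter, genotype as the only term, all 12 libraries), with Benjamini-Hochberg adjustment over 18877 genes and a threshold of 0.05. The test was checked on simulated data. SE is the log2 change divided by the root of F. DESeq2 1.42.0, limma-voom 3.58.1, other scalings, no filter, 6-library fits, a replicate block and leaving out each library were alternatives. Replicate pairs of a genotype differed by more than counting noise, so no library was counted as deposited more than once.

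Same-numbered libraries were checked for shared deviations from their genotype means. All 3 pairs correlated above 0.1 for TPR1-GFP sid2-1 and Col-0 alone (0.201, 0.304 and 0.356), and 8 of 18 pairs did over the 6 comparisons. The labels do not say what a number marks, so this pairing comes from the data.

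Gene positions, domain notes and upstream sequences came from the RefSeq annotation of TAIR10.1, matched by locus code.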

Additional observations from a re-analysis of the deposited data

How the results depend on the processing

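None of the values of the 21 genes changed direction among called results under the alternatives run. With the replicate block, all 126 member values kept their side of the threshold, so the pairing changed no call (17 higher and 1 lower in TPR1-GFP against Col-0). The same held for all 126 with upper-quartile scaling and without the low-count filter, and for 124 with DESeq2, 121 with limma-voom and 121 with library totals alone. With only the 6 libraries compared, 116 values could be fitted and 111 of them kept their side, while the other 10 belong to members with too few counts in those libraries. Library totals alone left 1 member higher by at least 1 log2 unit in sid2-1 against TPR1-GFP instead of 2, and 0 higher in eds1-2 against sid2-1 instead of 1. With only the 6 libraries compared, 2 members were lower in sid2-1 against TPR1-GFP instead of 1. In eds1-2 against Col-0 that fit gave 1 higher and 3 lower, with or without the limit of 1 log2 unit, and limma-voom gave 3 lower, instead of 2 and 5. *AT1G57630* and *AT2G20142* are the 2 lower calls lost. The causes were not tested.

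Leaving out 1 library at a time gave 0 to 2 lower members, and 0 to 2 higher by at least 1 log2 unit, in sid2-1 against TPR1-GFP, 0 to 1 higher in eds1-2 against sid2-1, and 1 to 3 higher and 3 to 5 lower in eds1-2 against Col-0 under either limit. The highest counts came without TPR1-GFP replicate 1 (2 lower in sid2-1) and the lowest without TPR1-GFP replicate 2 or 3 or sid2-1 replicate 3 (0 lower). In TPR1-GFP against Col-0 the range was 15 to 17 higher, and in eds1-2 against TPR1-GFP 14 to 16 lower. By at least 1 log2 unit it was 11 to 15 higher in TPR1-GFP against Col-0, with 11 without TPR1-GFP replicate 2. It was 11 to 13 lower under that limit in eds1-2 against TPR1-GFP.

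Of all calls, the percent higher under main scaling and under library totals alone was 57.6 and 38.1 in sid2-1 against TPR1-GFP, 47.6 and 32.6 in eds1-2 against TPR1-GFP, 43.3 and 29.96 in eds1-2 against sid2-1, 52.6 and 76.5 in sid2-1 against Col-0 and 54.2 and 70.8 in eds1-2 against Col-0. Upper-quartile scaling gave 59.7 in eds1-2 against TPR1-GFP and 56.8 in eds1-2 against sid2-1. Depth limits *AT1G72870* and *CHL1*, with at most 21 counts in any library.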
